A study of Mus musculus with 16 samples.

Results

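The miR-23/27/24 family is encoded in a pair of paralogous clusters, and its 5 guide strands on the array (mmu-miR-23a, mmu-miR-23b, mmu-miR-27a, mmu-miR-27b and mmu-miR-24) were followed through mouse skin with and without PPARβ/δ and with and without chronic UV exposure. These 5 of the 577 mouse miRNAs on the array were chosen by exact name, with the passenger (star) strands kept apart. The samples were dorsal skin of female hairless littermates on a mixed SKH1-C57/Bl6-SV129 background, young adult at the start, either wild type (Ppard+/+) or lacking Ppard (Ppard-/-), which encodes PPARβ/δ, a nuclear receptor activated by fatty acids. Each genotype was either sham handled (no UV) or given 70 mJ/cm2 of UVB 3 times a week for 12 weeks and sampled in lesion-free skin, which made 4 groups of 4 animals with 1 array each. A miRNA array does not measure Ppard mRNA, so nothing here checks the genotype. The tissue is whole skin, in which fewer cells of a type and less RNA per cell cannot be told apart.

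Each cluster is transcribed as one primary RNA from which Drosha releases 3 hairpins, one of each family, and Dicer then cuts each hairpin into the mature duplex. The a cluster (Mir23a, Mir27a and Mir24-2) spans 404 bases of chr8:84208518-84208921 in GRCm38.p6, and no gene of the RefSeq table spans it. The b cluster (Mir23b, Mir27b and Mir24-1) spans 792 bases of chr13:63300484-63301275, inside the protein-coding gene Aopep at chr13:62964893-63326096. A miRNA recognises its target mRNAs mainly through its seed, bases 2 to 8 from the 5′ end. miR-23 and miR-27 are known from endothelial, adipocyte and muscle biology, miR-27 as a repressor of Pparg, a relative of Ppard. miR-24 is known for restraining cell-cycle genes, and miR-24 and miR-23b are both known to rise as keratinocytes differentiate.

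The mature sequences are shown because they decide which signals can be assigned to one cluster. They were taken from RefSeq (GRCm38.p6, all on the plus strand), which gave a mature sequence for 4 of the 5 members. The capitals mark the seed. miR-23a lies at chr8:84208563-84208583, miR-27a at chr8:84208727-84208747 and miR-27b at chr13:63300760-63300780, while miR-24 is encoded at both chr8:84208875-84208896 and chr13:63301251-63301272.
mmu-miR-23a: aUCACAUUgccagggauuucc
mmu-miR-27a: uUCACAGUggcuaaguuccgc
mmu-miR-27b: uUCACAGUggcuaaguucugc
mmu-miR-24: uGGCUCAGuucagcaggaacag
miR-27a and miR-27b share the seed UCACAGU and differ at 1 of 21 positions, C19U, counted from the 5′ end with the base of miR-27a first. Hybridisation of one to the probes of the other was not tested. The member without a RefSeq mature sequence was miR-23b, so its likeness to miR-23a could not be read. Hybridisation between miR-23a and miR-23b was not tested either. The 2 copies of miR-24 differ at 0 of 22 positions, so the miR-24 signal is the sum of both clusters, although the array design places its probes on chromosome 13 only. The passenger strands of miR-24 do tell the clusters apart, and are shown for that reason.
mmu-miR-24-2* (a cluster, chr8:84208839-84208860): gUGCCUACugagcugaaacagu
mmu-miR-24-1* (b cluster, chr13:63301213-63301235): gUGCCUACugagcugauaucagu
They have lengths of 22 and 23 bases and differ over the shared length at 5 positions, A17U, C19U, A20C, G21A and U22G, with the base of miR-24-2* first.

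All 5 members were detected on 16 of 16 arrays and were among the brightest miRNAs of skin. miR-23a ranked between 2 and 8 of the 577 miRNAs on each array, miR-24 between 8 and 14, miR-27a between 9 and 15, miR-23b between 13 and 19 and miR-27b between 19 and 27. Each was read by 2 probes of 10 spots, with no saturated spot on any array. The summed signal of an array ranged from 170979 to 395200 units. Every UV array lay on slide 1 and every no UV array on slide 2, with a local background of 119 to 130 units on the first and 63.3 to 65.8 on the second, so slide and UV cannot be told apart. On the UV slide the Ppard+/+ arrays filled row 1 and the Ppard-/- arrays row 2, so there row and genotype cannot be told apart either.

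Signals are given on 2 scales. Quantile normalization, the scale of the tests, replaces a signal by a value set by its rank on the array, and between ranks 2 and 27 it moves in steps of 0.0538 to 0.300 log2 units. Over 16 arrays each member therefore took only 6 or 7 different values. The other scale divides each array by its own 75th percentile, taken over the 167 miRNAs detected on every array, and keeps the distances between signals. The spread of the 5 members over the 16 arrays on the quantile scale (SD of 0.257 for miR-23a, 0.174 for miR-23b, 0.129 for miR-27a, 0.173 for miR-27b and 0.114 for miR-24, in log2 units) lay below the median of 0.265 over those 167 miRNAs.

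**Figure D1:**
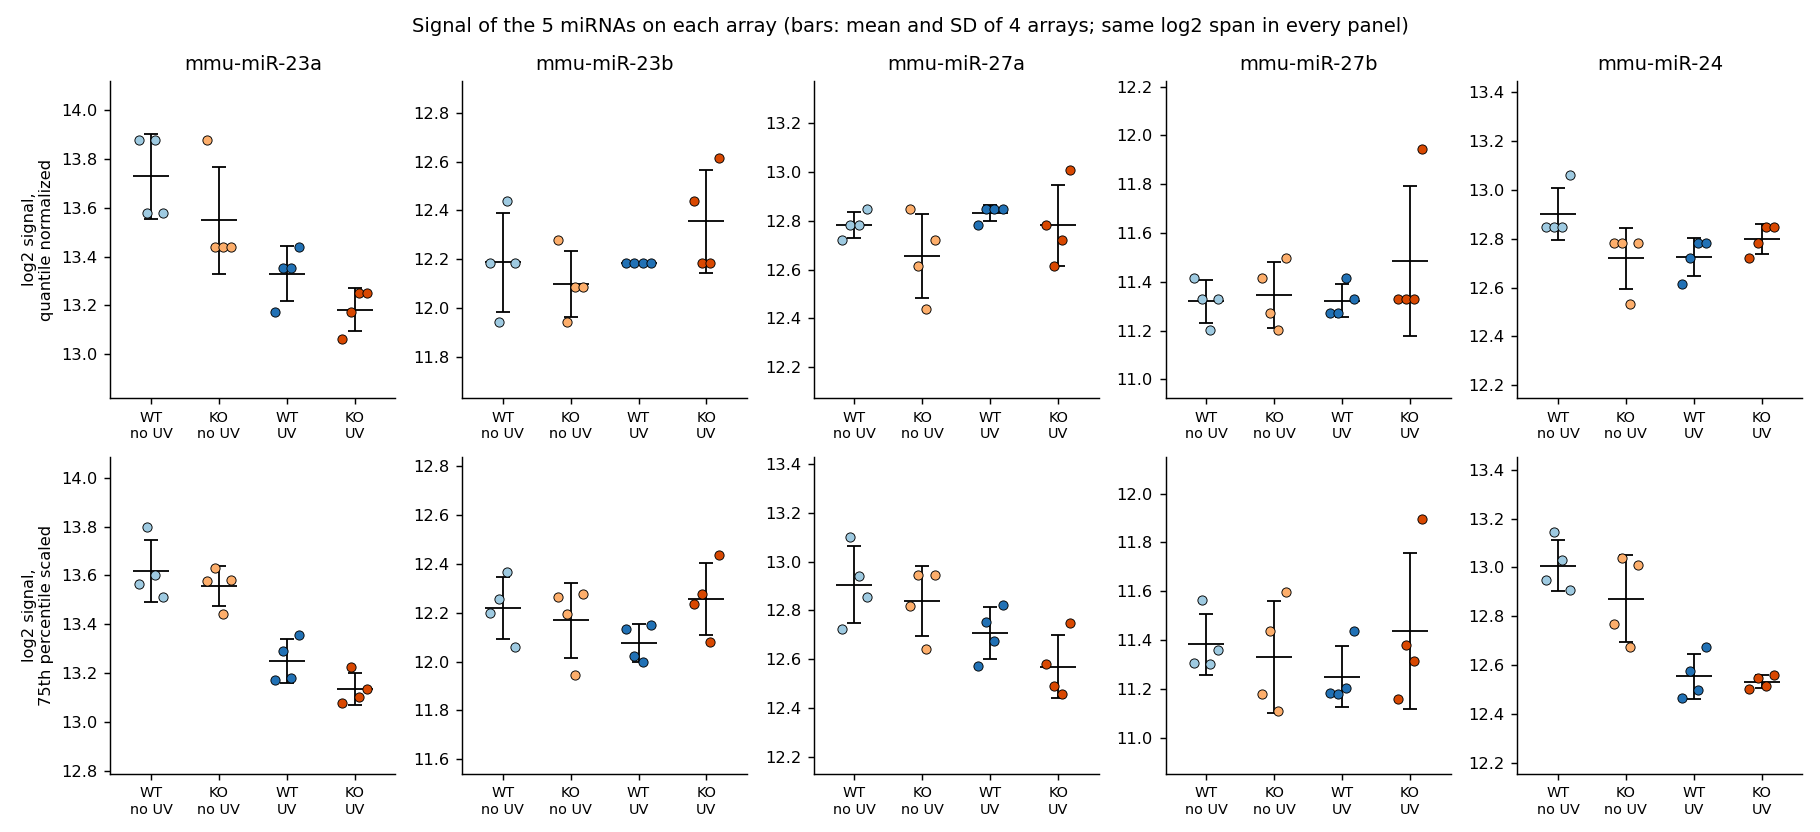
Log2 signal of each of the 5 miRNAs (columns) on the 16 arrays, quantile normalized in the upper row and scaled to the 75th percentile in the lower row. Points are arrays, bars give the mean and SD of 4 arrays per group, and WT and KO are Ppard+/+ and Ppard-/-. miR-23a is lower in both UV groups in both rows, whereas miR-24 is lower in both UV groups only in the lower row.

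miR-23a was lower after chronic UV in both genotypes. In Ppard+/+ skin without UV its 75th percentile-scaled signals were 12109, 14250, 12436 and 11664 units, against 9233, 10019, 9270 and 10490 after UV. In Ppard-/- skin they were 12214, 12687, 11129 and 12257 without UV and 8637, 9567, 8796 and 8989 after UV. Every UV array lay below every no UV array, whatever its genotype. On the quantile scale the mean log2 signal was 13.73 ± 0.17 (SD, n = 4) in Ppard+/+ without UV, 13.55 ± 0.22 in Ppard-/- without UV, 13.33 ± 0.11 in Ppard+/+ after UV and 13.18 ± 0.09 in Ppard-/- after UV. Neighbouring groups in that order overlapped. With UV miR-23a fell by 24.1% in Ppard+/+ (log2 difference -0.40, SE 0.11, limma with Benjamini-Hochberg adjusted p = 0.0234). In Ppard-/- it fell by 22.4% (log2 difference -0.37, SE 0.11, limma adjusted p = 0.0260). The difference between the 2 UV effects was -0.03 with an adjusted p of 0.992 in limma and a 95% interval from -0.36 to 0.30.

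miR-23a was the only one of the 5 members called at an adjusted p under 0.05 after UV, in either genotype, on the quantile scale. Of all 228 miRNAs tested, limma called 16.2% in Ppard+/+ (37 miRNAs, 9.21% higher and 7.02% lower) and 29.8% in Ppard-/- (68 miRNAs, 18.4% higher and 11.4% lower). One of 5 is close to the first share and below the second. The median UV difference of the 5 members was -0.0047 in Ppard+/+ and 0.13 in Ppard-/-, beside a median of 0 over all miRNAs tested. The miR-23a call in Ppard+/+ was lost without Ppard+/+ UV replicate 1 or 3 or without Ppard+/+ no UV replicate 1 or 3 (adjusted p of 0.0737, 0.0509, 0.0562 and 0.0703), each time with a difference of -0.40 to -0.34. In Ppard-/- it was lost without UV replicate 1 or 2 or no UV replicate 1 (0.0758, 0.0563 and 0.0573), with a difference of -0.36 to -0.26.

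miR-24 was also lower after UV in both genotypes once arrays were scaled rather than quantile normalized. Its 75th percentile-scaled signals were 7912, 9053, 8354 and 7686 units in Ppard+/+ without UV and 5652, 6098, 5790 and 6535 after UV. In Ppard-/- they were 6967, 8404, 6536 and 8236 without UV and 5805, 5989, 5851 and 6035 after UV. In each genotype all 4 UV arrays lay below all 4 no UV arrays. The difference was -0.45 (SE 0.079, limma adjusted p = 0.00166) in Ppard+/+ and -0.34 (SE 0.079, adjusted p = 0.0109) in Ppard-/-.

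On that scale the median of all miRNAs tested itself moved by -0.10 and -0.04, and relative to it miR-24 differed by -0.35 and -0.30 and miR-23a by -0.27 and -0.38. With these values 2 of the 5 members, miR-23a and miR-24, were called in each genotype, where 17.5% of all miRNAs tested were called in Ppard+/+ and 24.1% in Ppard-/-. Scaling to an invariant set, which held all 5 members among its 83 miRNAs, gave miR-24 differences of -0.39 (adjusted p = 0.000321, 22.8% of miRNAs called) and -0.32 (adjusted p = 0.000655, 30.3% called). Scaling to the 75th percentile of all 577 miRNAs gave -0.33 (adjusted p = 0.0310, 18% called) and -0.24 (adjusted p = 0.0875, 23.7% called).

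On the quantile scale the same arrays gave miR-24 a UV difference of -0.18 in Ppard+/+ (SE 0.067, limma adjusted p = 0.0853) and of 0.08 in Ppard-/- (adjusted p = 0.391). There its mean log2 signal was 12.90 ± 0.11 in Ppard+/+ without UV, 12.72 ± 0.12 in Ppard-/- without UV, 12.73 ± 0.08 in Ppard+/+ after UV and 12.80 ± 0.06 in Ppard-/- after UV (SD, n = 4). The direction in Ppard-/- therefore depended on the normalization. Its rank stayed between 8 and 14 on all 16 arrays, where neighbouring ranks lay about as far apart as the group means did.

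**Figure D2:**
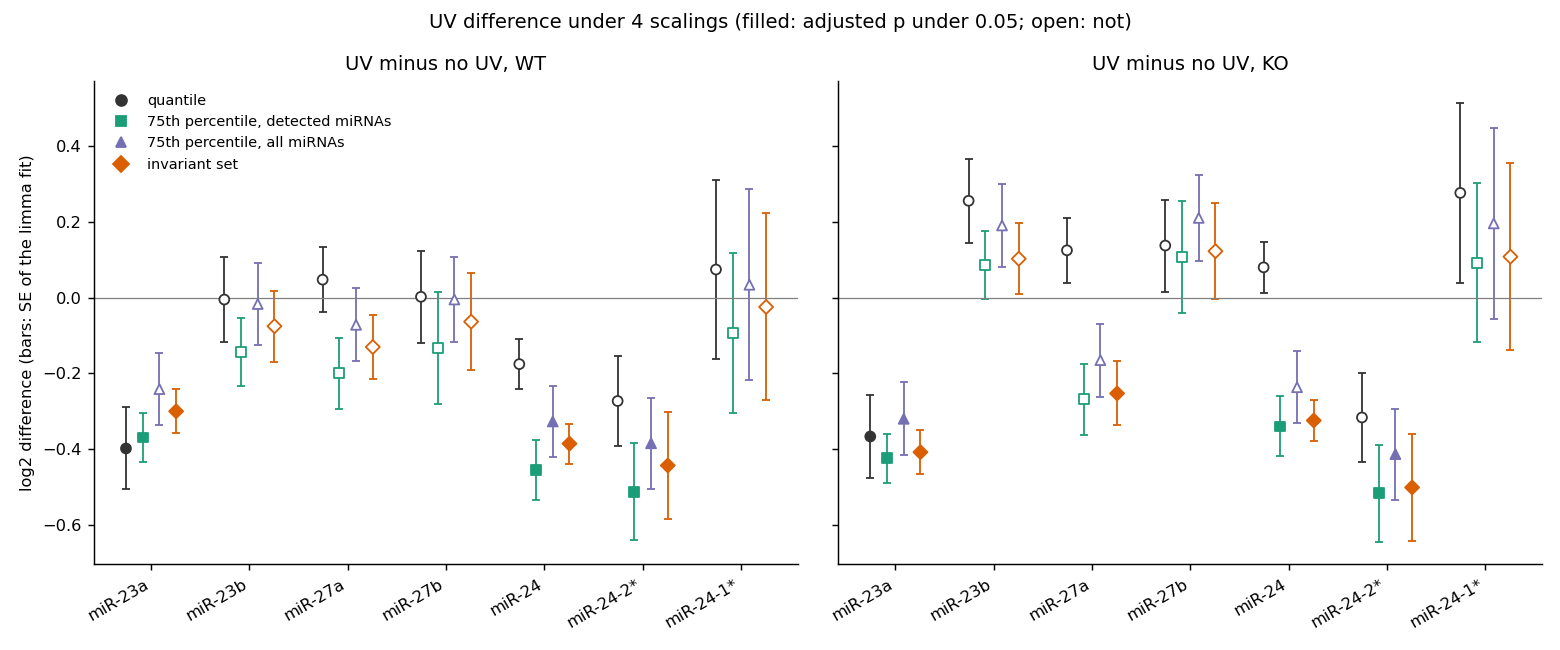
Log2 difference between UV and no UV arrays in Ppard+/+ (left, WT) and Ppard-/- (right, KO) for the 5 members and the 2 detected passenger strands, under 4 scalings. Bars are the SE of the limma fit on 4 against 4 arrays and filled markers have an adjusted p under 0.05. miR-23a and miR-24-2* lie below 0 under every scaling drawn, while miR-24 and miR-27a in Ppard-/- lie above 0 only with quantile normalization.

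miR-27a, the second guide of the a cluster, gave no call on the quantile scale (0.05 with adjusted p = 0.733 in Ppard+/+ and 0.13 with adjusted p = 0.300 in Ppard-/-, limma). The latter was 0.05 without Ppard-/- UV replicate 4, 0.06 without no UV replicate 3 and 0.19 without no UV replicate 1. Its 75th percentile-scaled signals fell between 6762 and 8791 units in Ppard+/+ without UV and between 6094 and 7244 after UV. In Ppard-/- they fell between 6398 and 7891 without UV and between 5632 and 6872 after UV. The groups overlapped in both genotypes. On this scale the differences were -0.20 (adjusted p = 0.160) and -0.27 (adjusted p = 0.0531), and with the invariant set the one in Ppard-/- was called (-0.25, adjusted p = 0.0389).

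Neither of the b cluster's own guides was called after UV on either scale. miR-23b had 75th percentile-scaled signals of 4699, 4896, 5278 and 4268 units in Ppard+/+ without UV and of 4497, 4161, 4087 and 4541 after UV. In Ppard-/- they were 4917, 4685, 3944 and 4966 without UV and 4823, 4970, 4327 and 5542 after UV. The no UV and UV arrays overlapped in both genotypes. The UV difference on the quantile scale was -0.0047 (adjusted p = 1) in Ppard+/+, where all 4 UV arrays held rank 17, and 0.26 (SE 0.11, limma adjusted p = 0.1001) in Ppard-/-, or 0.16 without Ppard-/- UV replicate 4. On the 75th percentile scale these were -0.14 (adjusted p = 0.289) and 0.09 (adjusted p = 0.535).

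miR-27b had 75th percentile-scaled signals of 2530, 3028, 2524 and 2626 units in Ppard+/+ without UV and of 2322, 2319, 2358 and 2770 after UV. In Ppard-/- they were 2318, 2770, 2207 and 3101 without UV and 2288, 2664, 2547 and 3812 after UV. The highest of all 16 arrays was Ppard-/- UV replicate 4, and otherwise the groups overlapped. The quantile-scale UV difference was 0.0025 in Ppard+/+ (adjusted p = 1) and 0.14 in Ppard-/- (adjusted p = 0.415, limma). Without Ppard-/- UV replicate 4 the latter was -0.02, and without no UV replicate 3 it was 0.09.

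Genotype alone moved no member past the threshold. Without UV, limma called 0 of the 228 miRNAs (0%) and 0 of the 5 members between Ppard-/- and Ppard+/+, while 36 miRNAs had an unadjusted p below 0.05. The one member among those 36 was miR-24 (-0.18, SE 0.067, unadjusted p = 0.0179, adjusted p = 0.202), lower in all 4 Ppard-/- arrays than in any Ppard+/+ array on the quantile scale (exact two-sided permutation p = 0.0286, the smallest that 4 against 4 arrays allow, which 2.63% of miRNAs tested reached). On the 75th percentile scale the difference was -0.14 and the arrays overlapped. Without Ppard-/- no UV replicate 3 the quantile-scale difference of miR-24 was -0.12. That of miR-23a was -0.18, and -0.30 without Ppard-/- no UV replicate 1. That of miR-27a was -0.13, with -0.20 and -0.05 without Ppard-/- no UV replicate 1 and 3. The median of the 5 members was -0.13, beside 0 over all miRNAs tested.

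After UV, limma called 2.19% of miRNAs between the genotypes (5, all lower in Ppard-/-) and 0 of the 5 members, while 21 miRNAs and 0 members had an unadjusted p below 0.05. The exact test passed 0 members as well, and 6.14% of miRNAs. The differences were -0.15 for miR-23a, 0.17 for miR-23b, -0.05 for miR-27a, 0.16 for miR-27b and 0.07 for miR-24, with adjusted p of 0.754 to 0.951. Without Ppard-/- UV replicate 4 the difference of miR-23b was 0.09 and that of miR-27b 0.0057. The median of the 5 was 0.07, beside 0 over all miRNAs tested. The 95% intervals ran from -0.38 to 0.09 for miR-23a and from -0.07 to 0.41 for miR-23b, so these arrays do not bound either change tightly.

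The difference between the UV effects of the genotypes (Ppard+/+ minus Ppard-/-) was called for 2.19% of miRNAs (5, 4 above and 1 below 0) and for 0 of the 5 members, while 29 miRNAs had an unadjusted p below 0.05. All 5 members were below 0, between -0.26 and -0.03, with a median of -0.14 beside -0.0027 over all miRNAs tested. Without Ppard-/- UV replicate 4 the value of miR-27b was above 0, at 0.021, and that of miR-23b went from -0.26 to -0.17. miR-24 was the one member under an unadjusted 0.05 (-0.26, p = 0.0183, adjusted p = 0.245), and by the exact permutation of genotype within each UV state its p was 0.00367, where 9.65% of miRNAs tested had an exact p under 0.05. On the 75th percentile scale that miR-24 value was -0.11 with an adjusted p of 0.796, and those of miR-23a and miR-27a were above 0.

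The balance of the a and b clusters was read within each array as the log2 signal of the a miRNA minus that of its b relative. Any scale factor of an array cancels in it, so it was read without normalization. Its level has no meaning, since 2 probe sets are compared, and only its change between groups was read. A slide effect that depends on the signal level or on the probe does not cancel. Slide and UV therefore cannot be told apart in the ratio either. For miR-23a minus miR-23b the arrays gave 1.37, 1.54, 1.24 and 1.45 in Ppard+/+ without UV and 1.31, 1.44, 1.497 and 1.30 in Ppard-/- without UV. After UV they gave 1.04, 1.27, 1.18 and 1.21 in Ppard+/+ and 0.84, 0.94, 1.02 and 0.70 in Ppard-/-. The Ppard-/- UV arrays were below all 12 others. The 2 genotypes interleaved without UV.

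The miR-23a to miR-23b ratio was 0.702-fold in Ppard-/- skin after UV relative to no UV (log2 difference -0.51, SE 0.085, exact two-sided permutation p = 0.0286). In Ppard+/+ it was 0.856-fold (log2 difference -0.22, SE 0.081, exact p = 0.0571), where the groups overlapped. Between the genotypes after UV the ratio was lower in Ppard-/- by 0.30 log2 units (log2 difference -0.30, SE 0.086, exact p = 0.0286), and without UV it differed by -0.01 (exact p = 0.914). The difference between the 2 UV effects was 0.29 (SE 0.12, exact permutation p = 0.0649).

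For miR-27a minus miR-27b the arrays gave 1.42, 1.54, 1.64 and 1.498 in Ppard+/+ without UV and 1.64, 1.51, 1.54 and 1.35 in Ppard-/- without UV. After UV they gave 1.39, 1.57, 1.47 and 1.39 in Ppard+/+ and 1.42, 1.11, 1.14 and 0.85 in Ppard-/-. All Ppard-/- UV arrays but replicate 1 lay below every array of the other groups. The UV difference was -0.38 in Ppard-/- (SE 0.13, exact p = 0.0571) and -0.07 in Ppard+/+ (SE 0.063, exact p = 0.343), and the genotypes differed by -0.32 after UV (SE 0.12, exact p = 0.0857) and by -0.02 without UV (exact p = 0.857). The difference between the UV effects was 0.31 (SE 0.15, exact p = 0.0894).

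Of these 10 ratio comparisons none passed after Benjamini-Hochberg adjustment over the 10, where 7 had an adjusted p of 0.128. With 4 against 4 arrays the smallest exact p is 0.0286. With each of the 8 arrays left out in turn, the UV difference of the miR-23 ratio in Ppard-/- lay between -0.56 and -0.45. Its exact permutation p was 0.0286 each time. The genotype difference after UV lay between -0.35 and -0.24, with an exact p of 0.0286 to 0.0571 that was under 0.05 in only 2 of the 8. On quantile normalized values, where ranks set the distances, the UV difference of the miR-27 ratio in Ppard-/- shrank to -0.01 and that of the miR-23 ratio was -0.62.

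**Figure D3:**
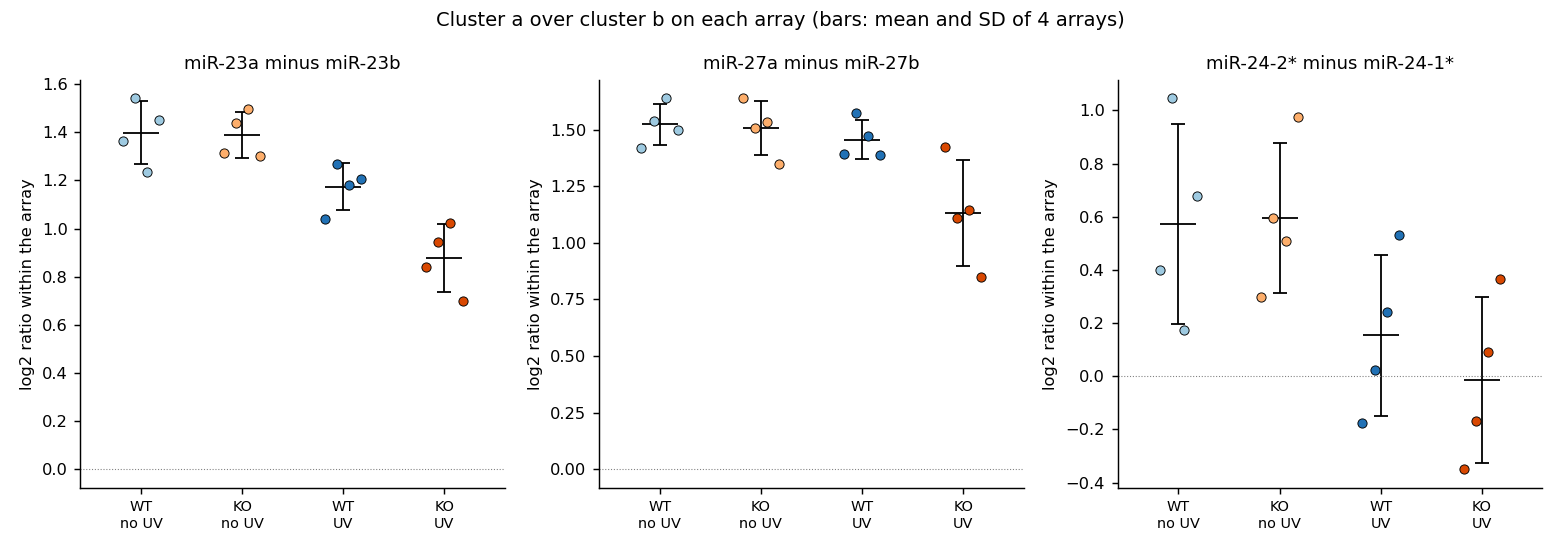
Log2 ratio of the a-cluster to the b-cluster miRNA within each array for miR-23, miR-27 and the passenger strands of miR-24, by group. Points are arrays, bars give the mean and SD of 4 arrays, and WT and KO are Ppard+/+ and Ppard-/-. The Ppard-/- UV group has the lowest mean in all 3 panels (0.88, 1.13 and -0.02).

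The 2 probes of each member were read separately, on the 75th percentile scale. Both miR-23a probes were lower after UV (-0.44 and -0.34 in Ppard+/+, -0.46 and -0.42 in Ppard-/-), as were both miR-24 probes (-0.50 and -0.42, then -0.36 and -0.32) and both miR-27a probes (-0.24 and -0.18, then -0.27 and -0.28). The probes of the b-cluster guides split in Ppard-/-, with 0.13 and -0.02 for miR-23b and 0.14 and -0.03 for miR-27b. In Ppard+/+ they were all below 0, at -0.14 and -0.17 for miR-23b and -0.10 and -0.25 for miR-27b, the last below both miR-27a probes. Over the 4 pairings of an a with a b probe, the UV difference of the miR-23 ratio ran from -0.58 to -0.40 in Ppard-/- and from -0.30 to -0.17 in Ppard+/+, and that of the miR-27 ratio from -0.42 to -0.24 and from -0.13 to 0.07. The direction of these UV differences in Ppard-/- therefore did not rest on one probe. Over the same pairings the genotype difference of the miR-23 ratio after UV ran from -0.37 to -0.12. Its exact permutation p ran from 0.0286 to 0.171, so whether it was under 0.05 depended on the probes.

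**Figure D4:**
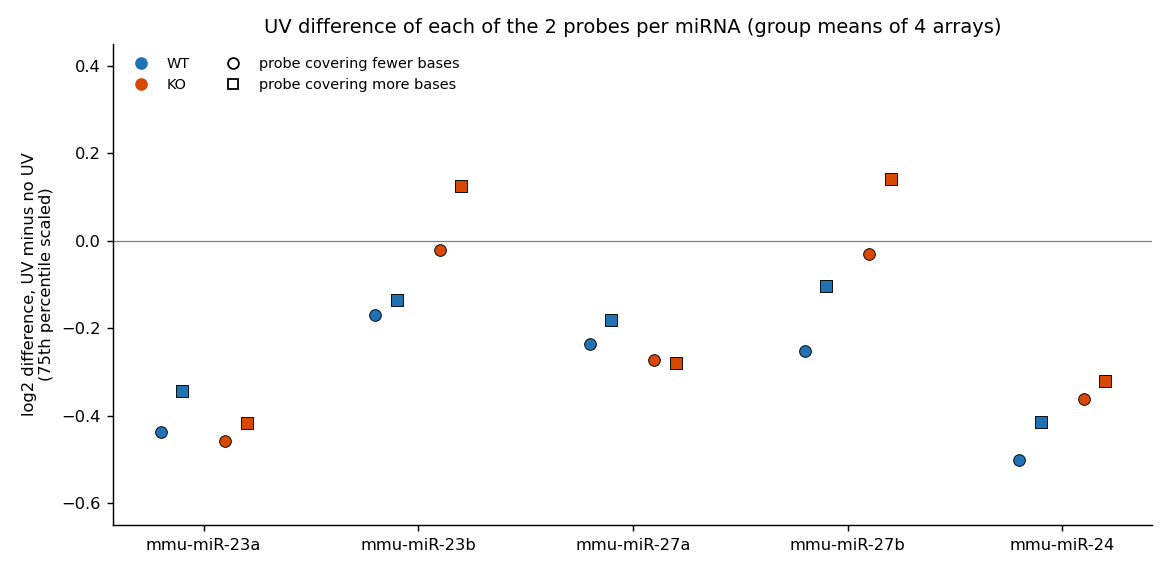
Log2 difference between UV and no UV arrays for each of the 2 probes of each member, 75th percentile scaled, in Ppard+/+ (blue, WT) and Ppard-/- (orange, KO). Circles and squares are the probes covering fewer and more bases, each from means of 4 arrays. Both probes of miR-23a, miR-27a and miR-24 lie below 0 in both genotypes, and those of miR-23b and miR-27b lie below 0 in Ppard+/+ and on either side of 0 in Ppard-/-.

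The passenger strands were dim. Of the 4 on the array, mmu-miR-27a* and mmu-miR-27b* were detected on 0 of 16 arrays, and mmu-miR-24-1* and mmu-miR-24-2* on all 16. mmu-miR-24-2*, released only by the a cluster, had 75th percentile-scaled signals of 161, 178, 176 and 182 units in Ppard+/+ without UV and 126, 120, 115 and 127 after UV. In Ppard-/- they were 172, 159, 119 and 166 without UV and 97.7, 96.5, 97.4 and 140.1 after UV. The groups were separate in Ppard+/+ and overlapped in Ppard-/-. On the quantile scale its UV differences were -0.27 (SE 0.12, limma adjusted p = 0.123) and -0.32 (SE 0.12, adjusted p = 0.0609), neither called. On the 75th percentile scale both were called (-0.51 with adjusted p = 0.0157 and -0.52 with adjusted p = 0.0141).

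mmu-miR-24-1*, released only by the b cluster, was not called after UV on either scale. Its signals were 122, 86.3, 156 and 114 units in Ppard+/+ without UV and 143, 118, 97.0 and 88.0 after UV, and in Ppard-/- 140, 105, 83.4 and 84.5 without UV and 124, 109, 91.4 and 109 after UV. All groups overlapped. Its UV differences were 0.07 (adjusted p = 0.869) and 0.28 (adjusted p = 0.404) on the quantile scale and -0.09 (adjusted p = 0.810) and 0.09 (adjusted p = 0.826) on the other. The log2 ratio of miR-24-2* to miR-24-1* within an array, computed after these values were seen and given without a test, was 0.57 ± 0.38 in Ppard+/+ and 0.59 ± 0.28 in Ppard-/- without UV, and 0.15 ± 0.30 and -0.02 ± 0.31 after UV (SD, n = 4).

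Correlations over the 16 arrays depended on the scale and on the group means. On the 75th percentile scale Pearson's r was 0.95 between miR-23a and miR-24, 0.86 between miR-27a and miR-24 and 0.84 between miR-23a and miR-27a, and with the 4 group means removed it was 0.81, 0.80 and 0.69. The b-cluster guides had r of 0.64 with each other, and of 0.30 (miR-23b) and 0.31 (miR-27b) with miR-24. miR-23a and miR-23b had r of 0.17, and miR-27a and miR-27b of 0.41. With the group means removed these were 0.58 (miR-23b and miR-27b), 0.53 (miR-23b and miR-24), 0.66 (miR-27b and miR-24), 0.49 (miR-23a and miR-23b) and 0.74 (miR-27a and miR-27b), so most of the distance between the a and b pairs was gone. On the quantile scale r was 0.35 between miR-23a and miR-24, 0.49 between miR-27a and miR-24, 0.03 between miR-23a and miR-27a and 0.59 between miR-27a and miR-27b. All these values share the arrays and their scaling, and are descriptions.

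The miRNAs most like each member were sought among the other 162 detected on all arrays, by r over the 16 arrays on the quantile scale. In brackets each r is followed by its value with group means removed. For miR-23a the first was its own cluster's passenger miR-24-2* (0.81, 0.52), then miR-181a (0.77, 0.65) and miR-222 (0.77, 0.33). For miR-23b they were miR-483 (0.63, 0.63), miR-202-3p (0.62, 0.57) and miR-24-1*, a passenger of its own cluster (0.59, 0.60). On the 75th percentile scale miR-23b had r of 0.33 with miR-24-1* and 0.33 with the a cluster's miR-24-2*, and with group means removed 0.37 and 0.74. For miR-24 they were miR-484 (0.64, 0.71), miR-221 (0.63, 0.60) and miR-222 (0.62, 0.55). For miR-27b they were miR-203 (0.70, 0.72) and miR-205 (0.53, 0.39), both known as keratinocyte miRNAs, and miR-17 (0.52, 0.64). For miR-27a they were miR-15a (0.59, 0.43), miR-17* (0.58, 0.52) and miR-203 (0.55, 0.67), whose r on the 75th percentile scale was only 0.05, 0.19 and -0.13.

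miRNAs that mark cell types also differed between the groups. All 7 listed keratinocyte miRNAs (miR-203, miR-205, the miR-200 family) were detected on every array, and 4 were called higher after UV in Ppard+/+ and 6 in Ppard-/-, beside 9.21% and 18.4% of all miRNAs tested. Their signals were summed on the quantile scale, as were those of the lists below. The sums were 21539 to 25477 units in Ppard+/+ and 22225 to 27764 in Ppard-/- without UV, and 26081 to 31708 and 29320 to 43027 after UV. The 4 skeletal muscle miRNAs (miR-1, miR-133a, miR-133b and miR-206) were all called lower after UV in Ppard-/- and none in Ppard+/+ (beside 11.4% and 7.02% of all miRNAs tested), with sums of 20453 to 41168, 40655 to 50330, 21899 to 25985 and 19464 to 24489 units in the groups Ppard+/+ no UV, Ppard-/- no UV, Ppard+/+ UV and Ppard-/- UV.

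Of 7 leukocyte miRNAs, 3 were called lower after UV in Ppard+/+, and 1 higher and 1 lower in Ppard-/-, with sums in the same group order of 5326 to 7081, 3433 to 5426, 4147 to 4966 and 3485 to 4103 units. Of 2 endothelial miRNAs, 1 was called higher in Ppard+/+ and 0 in Ppard-/-, with sums of 1599 to 2011, 2114 to 2564, 2251 to 2633 and 2244 to 2288 units. Of 6 fibroblast and smooth muscle miRNAs on the array, 1 was called lower in Ppard+/+, and 1 higher and 2 lower in Ppard-/-, with sums of 5711 to 7276, 5275 to 6655, 6521 to 6877 and 5241 to 6056 units. Of 3 erythrocyte miRNAs 2 were tested, with 0 called in Ppard+/+ and 1 lower in Ppard-/-, and sums of 944 to 1399, 1337 to 1809, 864 to 2184 and 755 to 2092 units. Each listed miRNA on the array was detected on at least 1 array. The part of cell composition in the changes of miR-23a, miR-24 and the a to b ratios was not tested.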

How the data were processed

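Total RNA (100 ng per array, TRIzol, pCp-Cy3 label) from 16 animals was hybridised by the authors to 1-colour Agilent mouse miRNA arrays. The deposited files are scanner output of Agilent Feature Extraction 9.5.3.1, and the value used here is the deposited total gene signal, an intensity per miRNA that was summed over its probes and is background-subtracted. The authors' series table, with invariant and quantile normalized log2 values, was deposited as well and used as an alternative. Probe positions in the files are in mm9, and printed coordinates come from GRCm38.p6.

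Here signals were quantile normalized and raised to a floor of 19.4 units (the 5th percentile of detected signals, as its median across arrays), and log2 values were fitted in limma 3.58.1 (R 4.3.3, 1 mean per group, 12 residual degrees of freedom). The 228 of 577 miRNAs detected on all 4 arrays of a group were tested, with Benjamini-Hochberg adjustment over the 228 and calls at an adjusted p under 0.05. Slide and row were not in the model. The fit was tested on simulated data. Ratios were compared by exact two-sided permutation tests. The members, the miRNA lists and the ratios were chosen with earlier results of these data known. The text names the 5 members, the detected passenger strands and the 3 miRNAs most like each member. Alternatives covered normalization, signal column, filter, floor, replicate block, slide row, threshold and each array left out. The labels number 4 replicates per group, which the authors' methods describe as animals. The p-values therefore cover the spread between animals, and the number of arrays limits precision. Same-numbered arrays of different groups had residual correlations of -0.35 to 0.38 over 24 pairs. Between UV and no UV arrays of Ppard+/+ all 4 pairs were over 0.1 (0.13 to 0.32). So were all 4 pairs between Ppard-/- no UV and Ppard+/+ UV arrays (0.17 to 0.38), while in the other comparisons of 2 groups at least 1 pair was not. The labels do not say that a number is shared, so the replicate block was used as an alternative.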

Additional observations from a re-analysis of the deposited data

Results flagged for a closer look

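In 28 sets of 4 arrays examined, 5 had 1 array whose gap to the nearest other filled more of the range than Dixon's 95% critical value allows, where chance flags about 1 in 20. In all 5 the other 3 arrays held one and the same quantile normalized value because they held the same rank. The arrays were Ppard-/- no UV replicate 1 for miR-23a (log2 signal 13.88), Ppard+/+ UV replicate 1 for miR-27a (12.78), Ppard-/- UV replicate 4 for miR-27b (11.94), Ppard+/+ no UV replicate 4 for miR-24 (13.06) and Ppard-/- no UV replicate 3 for miR-24 (12.53). Of these, only the miR-27b value was also the highest of all 16 arrays on the 75th percentile scale, at 3812 units.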

How the results depend on the processing

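The limits are those of 4 arrays per group: most members changed by less than 0.3 log2 units, and signs of uncalled values moved with the scaling. Between ranks 8 and 27, where the members other than miR-23a lay, neighbouring ranks were 0.0538 to 0.163 log2 units apart. miR-23a kept its UV call in 12 of 14 alternatives in Ppard+/+ and 13 of 14 in Ppard-/-. It was lost in Ppard+/+ with the 75th percentile of all miRNAs (difference -0.24, limma adjusted p = 0.0989) and without normalization, and in Ppard-/- with slide row as a covariate (-0.31, 0.102). Causes were not tested.

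With the 75th percentile of detected miRNAs, 2 members were called after UV in each genotype, and the sign turned for miR-27a (-0.20 in Ppard+/+, -0.27 in Ppard-/-), miR-24 in Ppard-/- (-0.34), miR-27b in Ppard+/+ (-0.13), miR-27b by genotype without UV (-0.052), miR-24 by genotype after UV (-0.022) and the interactions of miR-23a (0.054) and miR-27a (0.069). With that of all miRNAs the same 8 values were -0.071, -0.16, -0.24, -0.0045, -0.061, -0.054, 0.079 and 0.093. With the invariant set they were -0.13, -0.25, -0.32, -0.063, -0.035, -0.058, 0.11 and 0.12, and 2 and 3 members were called after UV in Ppard+/+ and Ppard-/-.

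Without normalization the median of all miRNAs itself moved by 0.52 by genotype without UV, -0.25 by genotype after UV, 0.21 after UV in Ppard+/+, -0.48 after UV in Ppard-/- and 0.77 in the interaction, with 48.7%, 2.19%, 18.9%, 57% and 60.5% of the 228 miRNAs called, so the values below include a shift of whole arrays. There 4 members were called by genotype without UV, 0 after UV in Ppard+/+, 4 after UV in Ppard-/- and 4 in the interaction. Turned values were then 0.48 (miR-23a), 0.49 (miR-23b), 0.47 (miR-27a) and 0.41 (miR-24) by genotype without UV (relative to that median -0.043, -0.032, -0.049 and -0.12), -0.13 (miR-23b), -0.13 (miR-27b) and -0.33 (miR-24) by genotype after UV, 0.018 (miR-23a) and 0.24 (miR-23b) after UV in Ppard+/+, and -0.38 (miR-23b), -0.74 (miR-27a), -0.36 (miR-27b) and -0.81 (miR-24) after UV in Ppard-/-. Its interactions were 0.91 (miR-23a), 0.62 (miR-23b), 0.92 (miR-27a), 0.61 (miR-27b) and 0.74 (miR-24).

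At an adjusted or an unadjusted p under 0.001 with a 1.5-fold change, 0 members were called after UV in either genotype. Of all 228 miRNAs tested, the adjusted threshold passed 3.95% in Ppard+/+ and 1.32% in Ppard-/-, and the unadjusted one 6.58% and 7.02%. By the exact permutation test at an unadjusted p under 0.05, 1 member was called by genotype without UV, 2 after UV in Ppard+/+ and 1 in the interaction, beside 2.63%, 21.5% and 9.65% of all miRNAs. With no filter, 233 miRNAs could be tested, since 344 lay at the floor on all arrays and have no spread. With slide row as a covariate 0 were called after UV in Ppard-/-, beside 13.6% of all miRNAs, and miR-23b (0.052) and miR-27b (-0.023) turned in Ppard+/+. In the authors' series table miR-27b after UV in Ppard+/+ was -0.00097 and the miR-27a interaction 0.054. The miR-23a interaction was 0.040 with normexp and 0.041 with processed spot signals.

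For the miR-23 ratio, the series table gave -0.32 by genotype after UV (no longer past 0.05) and -0.49 after UV in Ppard+/+ (now past it), quantile values gave -0.32 and -0.39 likewise, and processed spot signals gave -0.25 in Ppard+/+ (now past it). For the miR-27 ratio, the series table gave -0.27 by genotype after UV (now past 0.05) and 0.10 after UV in Ppard+/+, and quantile values gave 0.045 there. With normexp the miR-27 ratio passed 0.05 by genotype after UV (-0.31), after UV in Ppard-/- (-0.36) and in the interaction (0.32), and was 0.0082 by genotype without UV.

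Over all miRNAs, with the count of the reported fit in brackets, the alternatives other than no normalization and leaving out an array called 0 to 9 by genotype without UV (0, and 9 with no filter), 0 to 6 by genotype after UV (5), 27 to 58 after UV in Ppard+/+ (37, and 58 in the authors' series values), 31 to 79 after UV in Ppard-/- (68, and 31 with slide row) and 0 to 4 in the interaction (5).

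With the replicate number as a block, the miR-23 ratio kept its differences of -0.30 by genotype after UV and -0.51 after UV in Ppard-/- but could not pass, since 4 pairs allow an exact p of no less than 0.125. The block changed no call of a member (miR-23a after UV had limma adjusted p = 0.0421 in Ppard+/+ and 0.0447 in Ppard-/-).

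With 1 array left out in turn, 0 to 2 members were called after UV in Ppard+/+ and 0 to 1 in Ppard-/-. These counts stand without the share of all miRNAs called in the same fits, and are not read as a result about the members. Values ran from -0.021 to 0.072 (miR-27b) and -0.13 to 0.00052 (miR-27a) by genotype without and after UV, from -0.080 to 0.081 (miR-23b) and -0.037 to 0.035 (miR-27b) after UV in Ppard+/+, from -0.017 to 0.19 (miR-27b) after UV in Ppard-/-, and from -0.15 to 0.027 (miR-23a) and -0.19 to 0.021 (miR-27b) in the interaction. The miR-23 ratio ran from -0.065 to 0.037 by genotype without UV, -0.35 to -0.24 after UV, -0.28 to -0.18 after UV in Ppard+/+ and 0.23 to 0.34 in the interaction. The miR-27 ratio ran from -0.059 to 0.038 by genotype without UV, -0.42 to -0.23 after UV, -0.47 to -0.28 after UV in Ppard-/- and 0.22 to 0.41 in the interaction.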
